A study of Zea mays with 4 samples.

Results

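Growth-regulating factors (GRFs) and GRF-INTERACTING FACTOR1 (GIF1) were followed in the growing maize leaf as 10 listed genes, 9 GRF genes and GIF1, out of 30821 gene names in the deposited table. They were listed by gene identifier, with earlier results of these data known. Each of the 10 had a locus of its own with no second gene name. The RNA was from leaf 6 of hydroculture plants of B73, an inbred line and the source of the maize reference genome. The compartment sampled was the elongation zone, where cells lengthen after division. The design had 2 low-nitrogen libraries, LN1 and LN2, from plants supplied with 0.04 mM nitrogen, and 2 control libraries, HN1 and HN2, from plants supplied with 4 mM nitrogen. Both groups shared genotype, organ and zone, and the labels name no transgene or other treatment. The labels do not say whether the libraries of 1 group are separate plants, so errors and p-values cover only the spread between libraries, which may be technical.

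GRFs are plant-specific transcription factors with a WRC domain, which binds DNA, and a QLQ domain, which binds GIF proteins. GIFs are coactivators without a DNA-binding domain of their own, and they bring chromatin remodellers of the SWI/SNF type to GRF targets. Transcripts of most GRF genes are cut under guidance of microRNA396, which in Arabidopsis leaves rises as cells leave division. In maize, GRF1 made resistant to microRNA396 lengthens the leaf, extra GRF10 reduces leaf size, and loss of GIF1 gives narrow leaves. The family is best known from the dividing leaf base, which borders the elongation zone. The series' title names cell flux and elongation rate under nitrogen limitation as its subject.

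Expression was given as FPKM, fragment numbers scaled to transcript length and library size, so levels can be compared between genes. Total FPKM was 666397 and 710263 in LN1 and LN2, against 814307 and 1113329 in HN1 and HN2. Absolute depth is unknown. Low values put LN2 at 94.3%, HN1 at 78.3% and HN2 at 68.3% of the depth of LN1. The control libraries would thus be the shallower ones if FPKM was scaled to sequenced depth alone, which the sources used here do not state. Markers of the zone were as follows. The expansin genes, wall-loosening proteins of elongating cells, summed to 428 and 501 FPKM in LN1 and LN2, against 543 and 683 FPKM in HN1 and HN2. The sum is weighted to the most abundant of them. By log2 change, 5 of the 10 expansin loci that were tested were higher in LN and 5 were lower. Their median was -0.017, and 0.23 under quantile normalization. kn1, which marks the shoot meristem, was listed at 0 in both LN libraries and at 0.0507 and 0.0715 FPKM in HN1 and HN2. Other KNOX and ligule genes differed from it. knox7 had 11.7 and 14.4 FPKM in LN1 and LN2, against 12.7 and 19.7 FPKM in HN1 and HN2. lg1 was higher in LN, at 2.26 and 2.35 FPKM against 0.857 and 1.01 FPKM. lg2 was lower in LN, at 0.0269 and 0.0880 FPKM against 0.463 and 0.503 FPKM. knox8 and lg4 were under 0.1 FPKM throughout, and 6 genes of this list were matched to no locus. Light-harvesting and C4 genes of the mature blade were far from 0, at 4211 and 2378 FPKM summed in LN1 and LN2, against 7512 and 13571 FPKM in HN1 and HN2, and their part in the results below was not tested. In bulk RNA, fewer cells of a type and less RNA per cell cannot be told apart.

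GRF10 was the most abundant of the 10 genes and GRMZM2G178261 the next. The other 8 averaged under 5 FPKM. None of the 10 passed the test between low and control nitrogen, and their log2 changes ran from -0.11 for GRF3 to 0.61 for GRF2. Every one of the 10 was detected in all 4 libraries, and the difference between nitrogen supplies was smaller than 2 libraries a group could resolve.

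**Figure D1:**
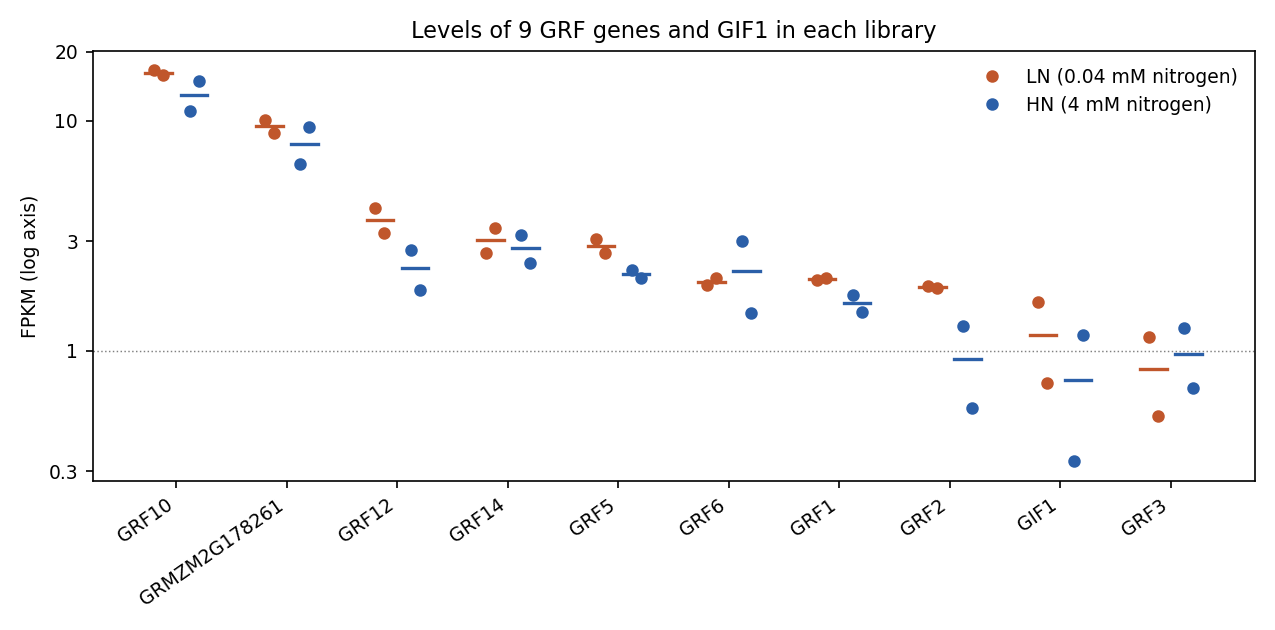
FPKM of each gene in the LN (left, orange) and HN (right, blue) libraries on a log axis, with points for libraries, bars for the mean of 2 and a dotted line at 1 FPKM. GRF10 and GRMZM2G178261 stand above the other 8 genes in all 4 libraries.

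Positions below are on the B73 RefGen_v3 build. GRF10 (GRMZM2G096709, chromosome 7, 145016796 to 145019476) stood at 16.6 and 15.8 FPKM in LN1 and LN2, against 11.1 and 15.0 FPKM in HN1 and HN2. Both LN libraries were above both HN libraries, with HN2 close to LN2. The mean was 16.2 ± 0.550 FPKM in LN and 13.0 ± 2.77 in HN (SD, n = 2 each). The log2 change was 0.31 (SE 0.22, 95% interval -0.25 to 0.87, limma adjusted p = 0.372).

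GRMZM2G178261 (chromosome 1, 272415606 to 272419746) is listed in RefSeq with GRF1 as a synonym, a name that is also the symbol of GRMZM2G034876, so the identifier is used here. It stood at 10.1 and 8.87 FPKM in LN1 and LN2, against 6.47 and 9.45 FPKM in HN1 and HN2. HN2 lay between the LN libraries, so the groups overlapped, and HN1 alone was low. Its log2 change was 0.25 (95% interval -0.37 to 0.87, limma adjusted p = 0.521). Without HN1 the change was 0.0045 for GRMZM2G178261 and 0.11 for GRF10. By mean level over the 4 libraries, GRF10 stood above 64.1% and GRMZM2G178261 above 49.0% of the 22489 tested loci. The other 8 genes stood above 1.2% to 21.6% of them.

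GRF12 (GRMZM2G119359, chromosome 9, 25722832 to 25725991) had 4.16 and 3.25 FPKM in LN1 and LN2, against 2.74 and 1.83 FPKM in HN1 and HN2. The groups did not overlap, but the libraries within each group were farther apart than LN2 was from HN1. The log2 change was 0.53 (SE 0.25, 95% interval -0.11 to 1.16, limma adjusted p = 0.212). GRF2 (GRMZM2G099862, chromosome 2, 225828391 to 225831803) had the largest change of the 10. It stood at 1.91 and 1.87 FPKM in LN1 and LN2, against 1.28 and 0.562 FPKM in HN1 and HN2. The LN libraries were alike, and HN2 was at less than 1 FPKM. The ratio of the means was 2.05, and on the log2(FPKM + 1) scale, which understates changes at such low levels, the change was 0.61 (SE 0.27, 95% interval -0.05 to 1.28, limma adjusted p = 0.178). GRF12 and GRF2 passed the threshold only when HN1 was left out (limma adjusted p = 0.0491 and 0.0269), a fit in which 46.6% of all tested loci passed.

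GRF1 (GRMZM2G034876, chromosome 5, 200344612 to 200348143), the family member that lengthens leaves, had 2.03 and 2.08 FPKM in LN1 and LN2, against 1.75 and 1.47 FPKM in HN1 and HN2. The groups did not overlap and the spread was small. The log2 change was 0.23, with a 95% interval of -0.30 to 0.76 (limma adjusted p = 0.487).

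GRF5 (GRMZM2G129147) had 3.06 and 2.68 FPKM in LN1 and LN2, against 2.25 and 2.07 FPKM in HN1 and HN2, also without overlap. Its log2 change was 0.29 (95% interval -0.24 to 0.82, limma adjusted p = 0.381). The table gives this locus the span 140355565 to 140445883 of chromosome 10, which is 90319 bp, while RefSeq lists the gene at 3655 bp in another assembly. The same span is given for 4 other loci, and how fragments in it were assigned among the 5 gene names is not given in the sources used here. Of those neighbours, GRMZM2G129071 had 11.8 and 11.9 FPKM in LN1 and LN2, against 25.5 and 25.1 FPKM in HN1 and HN2 (limma adjusted p = 0.0471), and GRMZM2G129169 had a log2 change of 0.58. What the shared span means for the value of GRF5 was not tested. No other locus of the table overlapped any of the other 9 genes.

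The remaining GRF genes showed overlapping groups. GRF14 (GRMZM2G098594, chromosome 6, 60352537 to 60355691) had 2.65 and 3.44 FPKM in LN1 and LN2, against 3.19 and 2.40 FPKM in HN1 and HN2, a log2 change of 0.09 (95% interval -0.51 to 0.70). GRF6 (GRMZM2G041223, chromosome 2, 12202774 to 12208055) had 1.93 and 2.06 FPKM in LN1 and LN2, against 3.005 and 1.46 FPKM in HN1 and HN2. Both LN values of GRF6 fell between the HN values, and the log2 change was -0.07 (95% interval -0.81 to 0.68). GRF3 (GRMZM2G105335, chromosome 4, 177152122 to 177154056) had 1.14 and 0.519 FPKM in LN1 and LN2, against 1.26 and 0.689 FPKM in HN1 and HN2. Its mean over the 4 libraries was the lowest of the 10, although GRF2 and GIF1 were lower in HN, and its log2 change had a 95% interval of -0.83 to 0.60. The limma adjusted p was 0.816 for GRF14, 0.895 for GRF6 and 0.808 for GRF3.

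GIF1 (GRMZM2G180246, chromosome 1, 273393235 to 273396891), the coactivator, was near the lower end of what could be tested. It stood at 1.62 and 0.726 FPKM in LN1 and LN2, against 0.331 and 1.17 FPKM in HN1 and HN2. Each group held a library above 1 FPKM and a library below it, and the HN libraries differed 3.53-fold. Its log2 change of 0.33 had the widest interval of the 10, -0.55 to 1.20 (limma adjusted p = 0.549). Without HN1 the change was -0.027, so its sign rests on that library. GIF1 lies 0.973 Mb from GRMZM2G178261 on chromosome 1, with 24 other loci of the table between them. No other pair of the 10 genes lay that close, and the only other pair on the same chromosome, GRF6 and GRF2, was 214 Mb apart.

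In order of level, only the first 2 steps went beyond the spread. GRF10 was above GRMZM2G178261 in every library, and the lowest value of GRF10 exceeded the highest of GRMZM2G178261. GRMZM2G178261 was in turn above GRF12 without overlap. From GRF12 downward, each of the 7 neighbouring pairs overlapped in range over the 4 libraries, so the order GRF12, GRF14, GRF5, GRF6, GRF1, GRF2, GIF1, GRF3 is within it. GRF10 and GRMZM2G178261 held ranks 1 and 2 in LN as in HN, and the other 8 genes each changed rank between the groups.

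The summed level of the 9 GRF genes was 43.6 and 40.6 FPKM in LN1 and LN2, against 33.0 and 34.9 FPKM in HN1 and HN2. GRF10 and GRMZM2G178261 together made up 61.3% and 60.8% of it in LN1 and LN2, against 53.1% and 70.0% in HN1 and HN2. The LN libraries were thus alike in this share, while the HN libraries lay on either side of them.

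**Figure D2:**
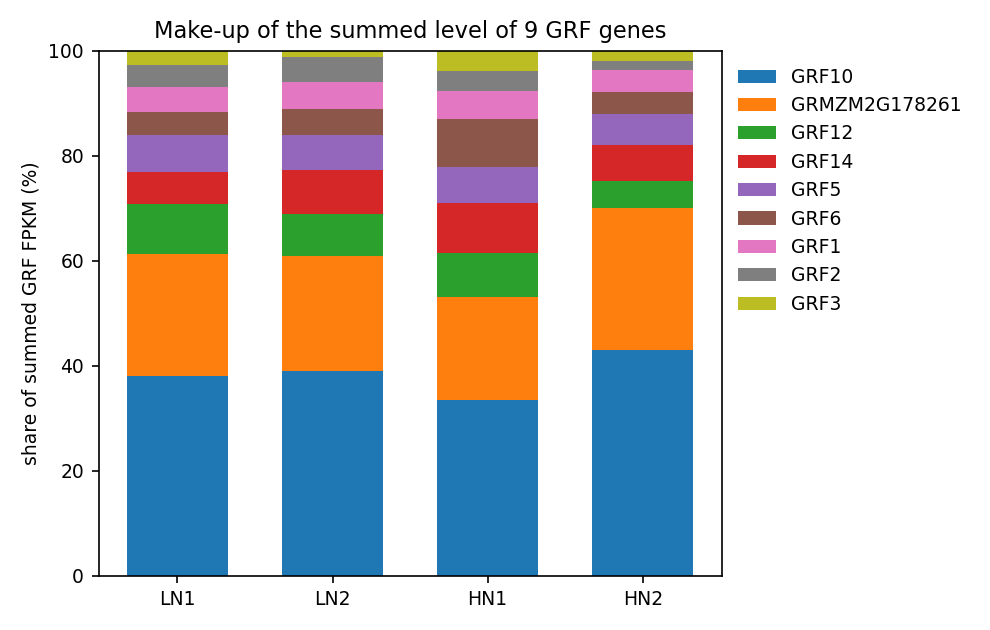
Share of each GRF gene in the summed FPKM of the 9 GRF genes, as stacked bars for LN1, LN2, HN1 and HN2. The bottom segments, GRF10 and GRMZM2G178261, together take 61.3% and 60.8% in the LN libraries, against 53.1% and 70.0% in the HN libraries.

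Counted together, 0 of the 10 genes were called by limma at an adjusted p under 0.05, while 4.98% of all tested loci were called. Without adjustment, 0 of 10 had p under 0.05, against 32.3% of all tested loci. As for the authors' deposited table, 0 of the 10 had a q-value under 0.05, against 19.4% of the tested loci, and the lowest q-value was 0.269, for GRF2. In the authors' deposited table the log2 fold changes were positive for 8 genes and negative for 2, GRF6 and GRF3, as in the limma fit, where 54.7% of all tested loci were positive. Both LN libraries were above both HN libraries for 5 of the 10 genes, against 36.6% of all tested loci. Both were below for 0 of the 10, against 29.9%. Groups without overlap in either direction were thus seen for 5 of the 10 genes and for 66.4% of all tested loci. The median log2 change was 0.27 over the 10 genes and 0.07 over all tested loci. Under quantile normalization these medians were 0.13 and 0.05, and 7 of the 10 changes were positive in place of 8, since GRF14 turned negative. With scaling to the upper quartile of each library they were 0.34 and 0.15, and 8 of the 10 changes were positive.

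**Figure D3:**
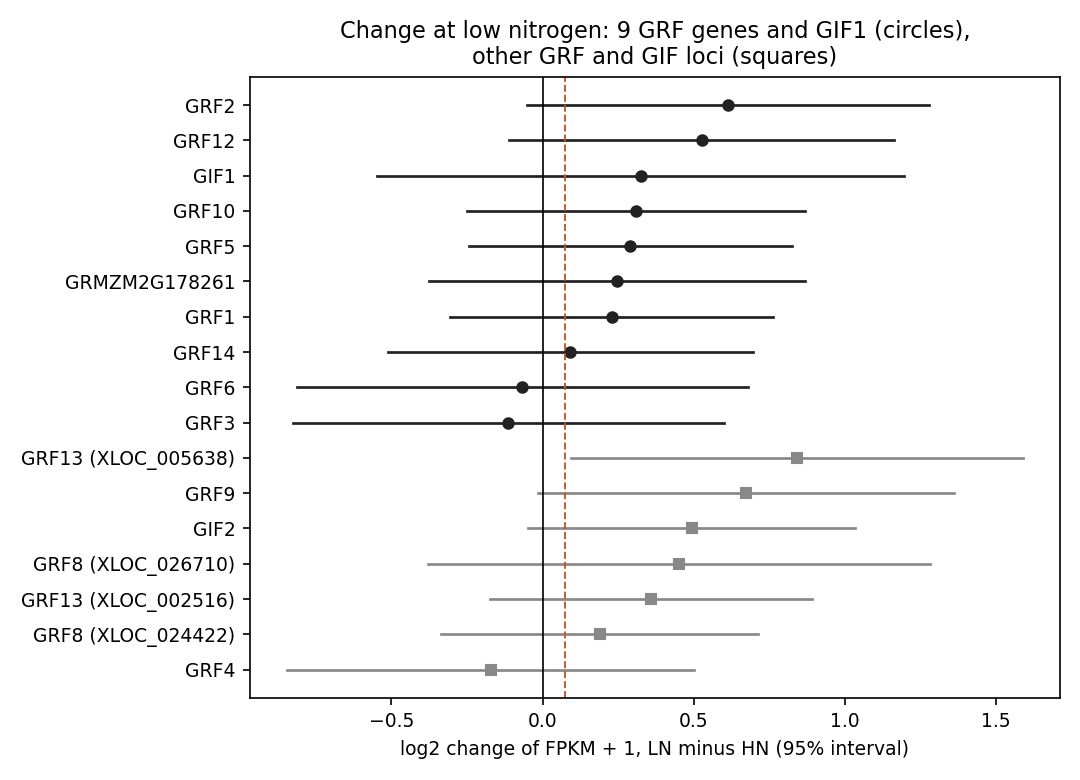
log2 change of FPKM + 1, LN minus HN, with 95% limma intervals, for the 9 GRF genes and GIF1 (circles) and 7 further GRF and GIF loci (squares). The dashed line is the median of all tested loci, 0.07, and every circle's interval includes 0.

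The intervals say which rises remain within the error of each gene, which is not the same as what could have been called. The upper bounds passed 1 for GRF2, GRF12 and GIF1, so a doubling of these 3 on the scale of FPKM + 1 is within their error. With the limma error fitted for each gene, a log2 increase of 1.12 for GRF1 to 1.83 for GIF1 would have been needed for a call. An observed doubling on that scale, a log2 change of 1, would thus have been called for none of the listed genes. A doubling of FPKM itself is a smaller change on this scale, and whether each interval includes it was not assessed. Falls were bounded by the scale itself: GRF2, GIF1 and GRF3 averaged under 1 FPKM in HN, so that even complete loss would have changed them by less than 1 and could not have been called. A p that misses the threshold does not show that these genes were equal in the 2 groups.

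The limma error of each gene draws on its own libraries, with 2 degrees of freedom, and on the trend over all tested loci, with 3.48. It is thus not a measure of the gene's own spread alone. The gap between HN1 and HN2 exceeded the gap between LN1 and LN2 for 8 of the 10 genes, against 76.7% of all tested loci. For 6 of the 10 the gap between HN1 and HN2 was also larger than the change between the groups. A gap between single libraries varies more than a difference of means, and the share of all tested loci was not computed. HN2 was above HN1 for GRF10, GRMZM2G178261 and GIF1, and below it for the other 7. Among all tested loci, HN2 was above HN1 for 45.3% of those with the level of GRF3 up to 5 FPKM and for 60.0% of those above 5 FPKM. The summed level of histone genes was 2315 and 2041 FPKM in LN1 and LN2, against 5966 and 11340 FPKM in HN1 and HN2, so it too differed more between the HN libraries. What part these differences have in the GRF values was not tested.

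**Figure D4:**
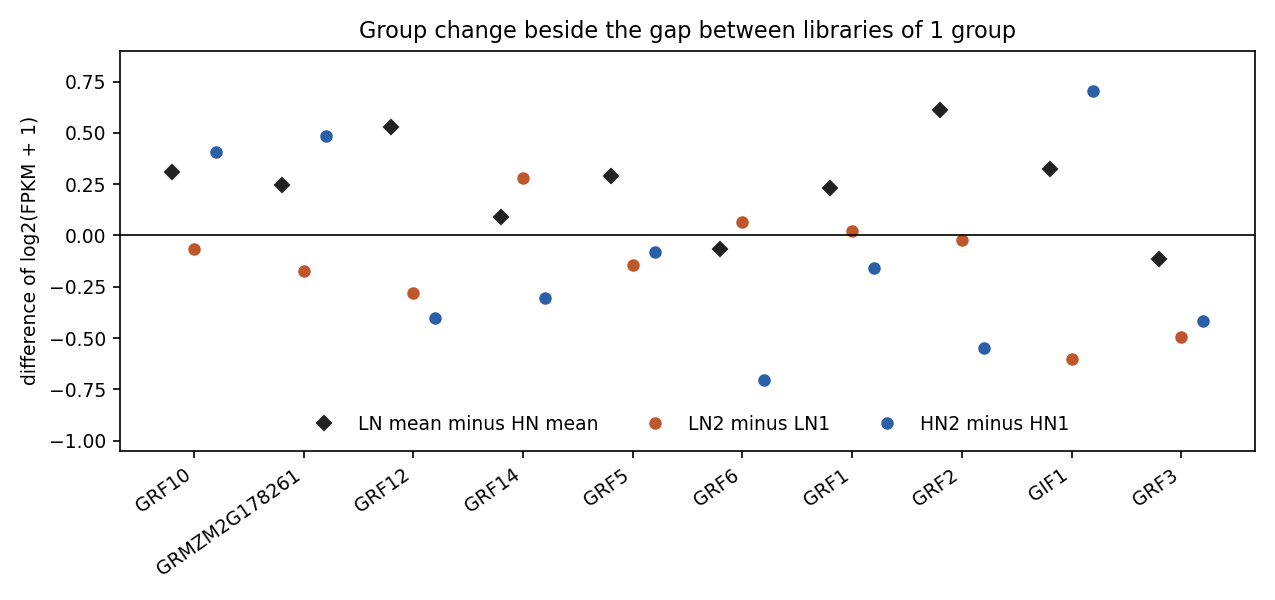
For each gene, the change LN mean minus HN mean (black diamonds) beside the gaps LN2 minus LN1 (orange) and HN2 minus HN1 (blue), as differences of log2(FPKM + 1). In 6 of the 10 genes the blue point, a gap between single libraries, lies farther from 0 than the diamond, a difference of means, which varies less.

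RefSeq listed 16 GRF and 3 GIF genes by symbol or synonym. Beyond the 10 genes, 6 GRF genes and GIF2 had loci in the table. GRF7 and GIF3, and the 8 microRNA396 genes, which would give the regulator of the GRF transcripts, were matched to no locus and were not analysed here. GRF4 (GRMZM2G004619) had the highest mean over the 4 libraries of any GRF, at 15.0 and 15.7 FPKM in LN1 and LN2, against 13.7 and 22.1 FPKM in HN1 and HN2. It was below GRF10 in both LN libraries and above it in both HN libraries. Its LN values lay between the HN values, as did those of GRF6 (GRF4 log2 change -0.17, limma adjusted p = 0.687). GIF2 (GRMZM2G154169), a second coactivator gene, stood at 15.2 and 15.5 FPKM in LN1 and LN2, against 12.1 and 9.28 FPKM in HN1 and HN2. GIF2 was thus above GIF1 in every library and had no overlap between groups (log2 change 0.49, 95% interval -0.05 to 1.04, limma adjusted p = 0.181).

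The other further GRF genes were weak. GRF13 and GRF8 each had 2 loci at identical coordinates, with log2 changes of 0.84 and 0.36 for GRF13 and of 0.45 and 0.19 for GRF8. The GRF13 locus with the larger change stood at 2.40 and 3.11 FPKM in LN1 and LN2, against 1.62 and 0.660 FPKM in HN1 and HN2 (unadjusted p = 0.0335, limma adjusted p = 0.127). RefSeq gives the name GRF9 to 2 genes, which lay on opposite sides. GRMZM2G124566 had 2.03 and 1.15 FPKM in LN1 and LN2, against 0.798 and 0.427 FPKM in HN1 and HN2. GRMZM5G893117 had 0.480 and 0.316 FPKM in LN1 and LN2, against 0.798 and 0.948 FPKM in HN1 and HN2, and did not reach the level filter. GRF11 was between 0 and 0.111 FPKM in the 4 libraries, also under the filter. Over the 17 tested GRF and GIF loci, 0 were called by limma and 0 in the authors' deposited table, against 4.98% and 19.4% of all tested loci. Only the GRF13 locus named above had an unadjusted limma p under 0.05, against 32.3% of all tested loci. In the authors' deposited table that locus and both GRF9 genes had an unadjusted p under 0.05, a count that was not set against all loci. The lowest q-value of these was 0.0503, for GRMZM5G893117, with a log2 fold change of -1.45. That gene is not among the 17.

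Genes of the GRF and GIF setting were read from the same fit, without a test of the lists. Of 6 loci listed as SWI/SNF-type chromatin genes by symbol alone, whose tie to GIF proteins was not tested, 0 were called by limma. Their median log2 change was 0.27, but -0.17 when loci were filtered at 5 FPKM and 0.11 without HN2. Without adjustment, 1 was higher and 1 lower with p under 0.05, against 32.3% of all tested loci in either direction. Both are loci of chr101a at identical coordinates, between which reads may be split, and the lower one was also called in the authors' deposited table. Histone genes, which mark cells in DNA synthesis, had both LN libraries below both HN libraries at all 27 loci, against 29.9% of all tested loci. Their median was -2.12. Of these, 15 were called lower by limma, against 3.8% of all tested loci, and 26 in the authors' deposited table. The 27 include 22 loci under the gene names H3C2 and H4C7, multicopy genes whose reads may be shared, and 2 linker histone genes, his1 and his1a, that were not called by limma, although his1 was called lower in the authors' deposited table. All 13 DNA replication loci had negative changes, with a median of -1.11. Both LN libraries were below both HN libraries at 10 of them, against 29.9% of all tested loci. Of the 13, 3 were called lower by limma (SLD5, RNRS1 and orc2), against 3.8% of all tested loci. The authors' deposited table had 8 called lower, against 3064 of the 22489 tested loci. Among 7 cell cycle loci, 0 were called by limma or in the authors' deposited table. Higher with an unadjusted limma p under 0.05 were 2, against 3573 of the 22489 tested loci. The cell cycle median was 0.031, but -0.021 without HN1 and -0.063 without LN1. At all 8 light-harvesting and C4 loci both LN libraries were below both HN libraries, against 29.9% of all tested loci. The median of that list was -1.67. Of its loci, 3 were called lower by limma, against 3.8% of all tested loci. All 8 were called lower in the authors' deposited table, against 3064 of the 22489. Over all lists 21 loci were called by limma, in a fit that called 4.98% of all tested loci. The count was 1 with a pseudocount of 0.1 in place of 1, where 0.449% of all tested loci were called.

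The histone changes lay between -2.58 and -0.56. They cannot be set against those of the GRF and GIF1 genes by size, since the pseudocount limits how far a gene of a few FPKM can fall on this scale and hardly touches the abundant histone loci. Whether the GRF genes differ from these lists as a group was not tested.

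**Figure D5:**
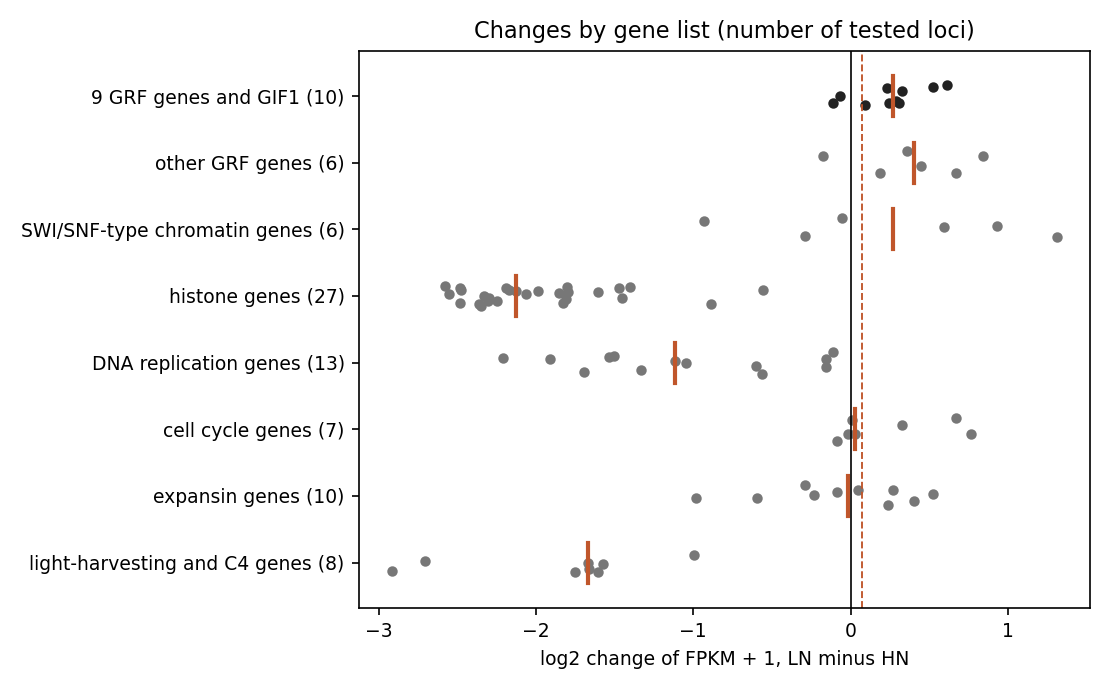
log2 change of FPKM + 1, LN minus HN, for each tested locus (points) by gene list, with list medians (orange bars) and the median of all tested loci (dashed line). The GRF and GIF1 points lie between -0.11 and 0.61 and the 27 histone points between -2.58 and -0.56, on a scale that compresses the changes of weakly expressed genes.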

How the data were processed

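RNA was sequenced from 4 libraries of the leaf 6 elongation zone, 2 LN and 2 HN. The authors deposited FPKM values per locus with the q-value, p-value and log2 fold change of their own LN and HN comparison, per the file headers. TopHat2, edgeR and B73 RefGen_v3 are named, without versions, per the submitters' processing notes; the program that assembled loci and computed FPKM is not given in the sources used here. Both HN columns carry 1 name, so HN1 and HN2 are the columns in their order and pair nothing with LN1 or LN2. One source label gives the HN dose in nM; the description's mM was used.

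The table's 31324 rows held 30378 loci, each tested once. limma 3.58.1 (R 4.3.3) with a mean-variance trend was run on log2(FPKM + 1), for the 22489 loci that had 2 or more libraries at 1 FPKM or above, with group as the only term. Calls are Benjamini-Hochberg adjusted p under 0.05 over all tested loci. All 10 genes passed the filter. In 10 simulated data sets of LN against HN with 22489 loci each, the test called 0.299% of changes by 1 on the log2 scale, 60.9% by 2 and 97.3% by 4. Few of the simulated loci were given a change, so the adjusted threshold was harder to reach there than in the data, where 4.98% were called. These rates are therefore not the power for the 10 genes, for which log2 changes of 1.12 to 1.83 were needed. Relative depth came from the most frequent ratio among loci under 0.1 FPKM.

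The 10 genes and all lists were chosen with earlier results of these data known. Lists were matched on symbols and synonyms of a RefSeq table (Zm-B73-REFERENCE-NAM-5.0, names and gene lengths alone), which matched all 10 genes. After the table was seen, gene names with another meaning were removed: 14-3-3 genes called grf1 and grf2, 7 kinesin genes called krp, AN names of genes other than GIF, and a second Pep1. Named genes were the 10, all other GRF and GIF genes, and for other lists called members or examples. GRMZM2G129071 and GRMZM2G129169 were named after their values were seen. No sequence was used. Exon structure was not analysed here. Depth is unknown, so no counting interval is given.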

Additional observations from a re-analysis of the deposited data

How the results depend on the processing

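The 10 GRF and GIF1 genes were refitted under 10 alternatives, and 0 were called under 9 of them and in the authors' deposited comparison. Leaving out 1 library gave 0 to 2 called genes, with the 2, GRF2 and GRF12, only without HN1. The sign of 7 of 102 alternative values turned, all in genes with small or variable changes. GRF14 was at -0.10 under quantile normalization. Over the fits without 1 library GRF14 ranged from -0.060 (without HN2) to 0.24 (without HN1), negative also without LN2 at -0.048. GRF3 ranged from -0.36 (without LN1) to 0.13 (without LN2), positive also without HN1 at 0.096. GRF6 ranged from -0.42 (without HN2) to 0.29 (without HN1), and GIF1 from -0.027 (without HN1) to 0.68 (without HN2). GRF10, GRMZM2G178261, GRF12, GRF2, GRF1 and GRF5 stayed positive under each alternative run, but without HN1 GRF10 was at 0.11 and GRMZM2G178261 at 0.0045. Of 69 gene list medians recomputed under alternatives, 25 moved by more than the SD between libraries of 1 group, and 6 changed sign. Under quantile normalization the histone median became -1.54 in place of -2.12. The filter at 5 FPKM left 2 of the 10 genes, GRF10 and GRMZM2G178261. All 1121 calls among loci became 101 with a pseudocount of 0.1, 1 with all loci above 0 tested, 2720 under quantile normalization and 4359 in the authors' deposited comparison. Without 1 library they ranged from 76 to 10470. Each such fit takes its spread from the other pair alone and assumes that the lone library varies likewise. The 21 called loci of the gene lists became 1, 0, 34 and 45 under the same 4 settings in that order, and 1 to 56 without 1 library. The cause of these shifts was not tested. No paired analysis was possible because both HN columns carry the same replicate name. FPKM without depth limits what can be said below about 1 FPKM, where GIF1, GRF2 and GRF3 had libraries.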
